A study of Mus musculus with 5 samples.

Results

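Hsd3b7, Baat and Cyp2c70 encode 3 enzymes that act after the first hydroxylations of bile acid synthesis, and they were followed in mouse hepatocytes from the fed state through 30 h without food. They were taken by name as 3 of the 64 genes of a capture panel. Levels were read in 5 libraries of single hepatocytes, 1 for each time, and along the axis of the liver lobule in each library. Relative to the panel, the 3 genes took separate courses. Hsd3b7 was highest after 16 h of fasting, at 3.46-fold its fed level. Cyp2c70 was highest after 8 h and after 30 h stood 3.80-fold below its fed level. Baat was at most 1.36-fold away from its fed level on this scale. Hsd3b7 was the most pericentral of the 3 in every library.

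Hepatocytes make bile acids from cholesterol in a chain of reactions that runs through the endoplasmic reticulum, mitochondria and peroxisomes. Hydroxylases such as Cyp7a1 start the classic route, and Cyp27a1 and Cyp7b1 serve the alternative one. Hsd3b7 then oxidises the 3-hydroxyl group of the 7α-hydroxylated sterols and moves the ring double bond, a step that both routes share. Baat, bile acid-CoA:amino acid N-acyltransferase, joins the finished bile acid to taurine or glycine, which makes it a better detergent and keeps it from crossing membranes freely. Cyp2c70 is a cytochrome P450 of mice that hydroxylates chenodeoxycholic acid and makes muricholic acids, which are abundant in mouse bile and scarce in human bile.

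All libraries came from wild-type (WT) male C57BL/6J mice on normal chow, whose livers were dissociated to total hepatocytes. Every animal had been trained for 3 days with 16 h without food and 8 h with food, and on the last day received food and water with 20% sucrose. The fed library (0 h) was collected after 4 h of feeding at clock hour 13, and food and sucrose water were withdrawn from the other mice at that hour. The fasted libraries followed after 8, 16, 24 and 30 h, at clock hours 21, 5, 13 and 19. The age of the mice and the number behind each library are not given in the sources used here. With 1 library per time there is no replicate error, no test was made, and every interval below is a 95% interval for counting error only. Hours of fasting and clock hour cannot be told apart, except between 0 h and 24 h, which share clock hour 13.

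Hsd3b7 (ENSMUSG00000042289) lies on the plus strand of chromosome 7, from 127800604 to 127803802 in GRCm38, with up to 7 exons in a transcript. A second protein-coding model, Gm49388 (127785608 to 127803802), shares exon sequence with it on the same strand, so UMIs (counts of distinct captured molecules) of the 2 models may not have been separable. Baat (ENSMUSG00000039653) lies on the minus strand of chromosome 4, from 49489422 to 49506557, with up to 4 exons. Cyp2c70 (ENSMUSG00000060613) lies on the minus strand of chromosome 19, from 40153353 to 40187333, with up to 9 exons. No other gene model overlaps Baat or Cyp2c70. RefSeq promoter sequence was matched for 2 of the 3 genes, Hsd3b7 and Cyp2c70. These are also the 2 genes that changed most over time. The bases just upstream of their annotated starts are shown, 5′ to 3′ on the strand of the gene, from RefSeq on GRCm38.p6. The first is chr7:127800359-127800603 on the plus strand and the second chr19:40187334-40187536 on the minus strand. Capitals mark the matches to the motifs listed next.
Hsd3b7: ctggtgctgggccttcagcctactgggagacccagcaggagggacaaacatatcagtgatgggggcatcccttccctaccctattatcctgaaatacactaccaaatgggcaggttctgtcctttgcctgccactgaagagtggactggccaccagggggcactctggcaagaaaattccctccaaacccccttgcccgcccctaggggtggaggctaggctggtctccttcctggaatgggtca
Cyp2c70: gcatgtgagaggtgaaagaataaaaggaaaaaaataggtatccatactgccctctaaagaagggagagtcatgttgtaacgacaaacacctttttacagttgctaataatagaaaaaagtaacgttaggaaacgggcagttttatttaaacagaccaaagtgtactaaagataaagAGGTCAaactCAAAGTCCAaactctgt

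Both strands of the 250 bases before each RefSeq start were searched for 6 short motifs, of which AGGTCA lies within CAAGGTCA. The stretches printed stop at the earlier of the RefSeq and GENCODE starts, 5 bases short of the RefSeq start for Hsd3b7 and 47 bases short for Cyp2c70. The Cyp2c70 promoter held AGGTCA, the half-site of many nuclear receptors, from 74 bases before the RefSeq start, and CAAAGTCCA, a sequence of the type bound by HNF4, from 64 bases before it. Of 32851 RefSeq promoters, 14.0% held AGGTCA and 0.384% held CAAAGTCCA. The Hsd3b7 promoter held none of the 6, the others being CACGTG (in 6.02% of promoters), TTATGTAA (0.819%), CAAGGTCA (1.33%) and TGTTTAC (3.17%). Its G and C content was 57.55% and that of the Cyp2c70 stretch was 35.47%. An exon of 9430064I24Rik, on the opposite strand, overlaps the Hsd3b7 stretch. The motifs were chosen after the promoters had been seen, so these shares do not measure how unusual a match is. These matches describe the letters only, and no binding was measured.

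The libraries held 7208 to 12153 barcodes and 3979629 to 11288725 panel UMIs each, and no barcode was filtered out of the levels. The 8 h library stood apart. Its barcodes had a median of 219 UMIs, against 651 to 1202.5 in the other libraries, and 47.8% of them had under 200 UMIs. It also had the highest summed level of 6 genes of other liver cells (Cdh5, Mrc1, Cd68, Ptprc, Pdgfra and Pdgfrb), at 220 UMIs per 1000000 panel UMIs against 29.7 to 76.2 elsewhere. The main results after 8 h are therefore also given for barcodes with 300 or more UMIs, where that level was 55.2. Alb, the albumin gene that defines hepatocytes, took 69.4% to 71.8% of the panel UMIs of each library. Of 47235 distinct barcode sequences, 238 occurred in more than 1 library.

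Hsd3b7 had 1471 UMIs per 1000000 panel UMIs (CPM) at 0 h (1444 to 1499), 3968 after 8 h (3906 to 4030), 5084 after 16 h (5028 to 5141), 1705 after 24 h (1680 to 1730) and 2647 after 30 h (2617 to 2677). In rising order the libraries were 0, 24, 30, 8 and 16 h, and no 2 counting intervals overlapped. Its log2 ratio to 0 h was 1.43 after 8 h (1.40 to 1.47), 1.79 after 16 h (1.76 to 1.82), 0.21 after 24 h (0.18 to 0.25) and 0.85 after 30 h (0.82 to 0.88). The largest step between neighbouring times was the drop from 16 h to 24 h, with a log2 ratio of -1.58 (-1.60 to -1.55). From 24 h to 30 h it was higher again, by 0.63 (0.61 to 0.66). In barcodes with 300 or more UMIs the ratio after 8 h was 1.42 (1.38 to 1.46). Under the other ways of scaling that were tried, the ratio after 16 h ranged from 1.10 to 1.89 and that after 30 h from 0.76 to 0.94. The ratio after 8 h turned to -0.25 when UMIs were counted per barcode, a scale on which the median panel gene stood at -1.63 in that shallow library.

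Cyp2c70 had 2985 CPM at 0 h (2946 to 3024), 4705 after 8 h (4638 to 4773), 4183 after 16 h (4132 to 4235), 1571 after 24 h (1547 to 1596) and 786 after 30 h (770 to 802). The libraries after 8 h and 16 h thus stood above the fed level and the last 2 below it, with no overlap of counting intervals among the 5. The log2 ratio to 0 h was 0.66 after 8 h (0.63 to 0.68), 0.49 after 16 h (0.46 to 0.51), -0.93 after 24 h (-0.95 to -0.90) and -1.93 after 30 h (-1.96 to -1.89). Between neighbouring times it was lower by a log2 ratio of -1.41 from 16 h to 24 h (-1.44 to -1.38), and lower again from 24 h to 30 h (interval -1.04 to -0.96). Barcodes with 300 or more UMIs gave 0.51 after 8 h (0.48 to 0.54), which no longer exceeds 1.5-fold. The lower levels after 24 h (-0.93 to -0.71) and after 30 h (-1.95 to -1.83) held under every scaling tried. Counted per barcode, the ratios after 8 h and 16 h were -1.02 and -0.20. Summed over a library, fewer cells with a transcript and less transcript per cell cannot be told apart.

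Baat had 2064 CPM at 0 h (2032 to 2097), 2662 after 8 h (2611 to 2713), 2266 after 16 h (2228 to 2303), 1512 after 24 h (1489 to 1536) and 2109 after 30 h (2082 to 2136). The lowest library was 24 h, and the intervals at 0 h and 30 h overlapped. The log2 ratio to 0 h was 0.37 after 8 h (0.33 to 0.40), 0.13 after 16 h (0.10 to 0.17), -0.45 after 24 h (-0.48 to -0.42) and 0.031 after 30 h (0.0014 to 0.060). The value after 8 h moved with the depth of the barcodes. In the 8 h library, barcodes with under 300 UMIs held 24.8% of the UMIs and had 4449 CPM of Baat, against 2071 CPM in the deeper barcodes. With 300 or more UMIs in both libraries, Baat after 8 h was level with 0 h, at a log2 ratio of 0.021 (-0.022 to 0.064). Shallow barcodes also had more Baat in the fed library, at 3451 against 2042 CPM, but held 1.62% of its UMIs. The same was so there for Hsd3b7 (2415 against 1456 CPM) and Cyp2c70 (4961 against 2952 CPM). The summed level of the 6 genes of other liver cells was 721 CPM in the shallow and 55.2 CPM in the deeper barcodes after 8 h, and its part in the Baat value was not tested. Per barcode, the ratio of Baat to 0 h was -1.31 after 8 h and -0.55 after 16 h.

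**Figure D1:**
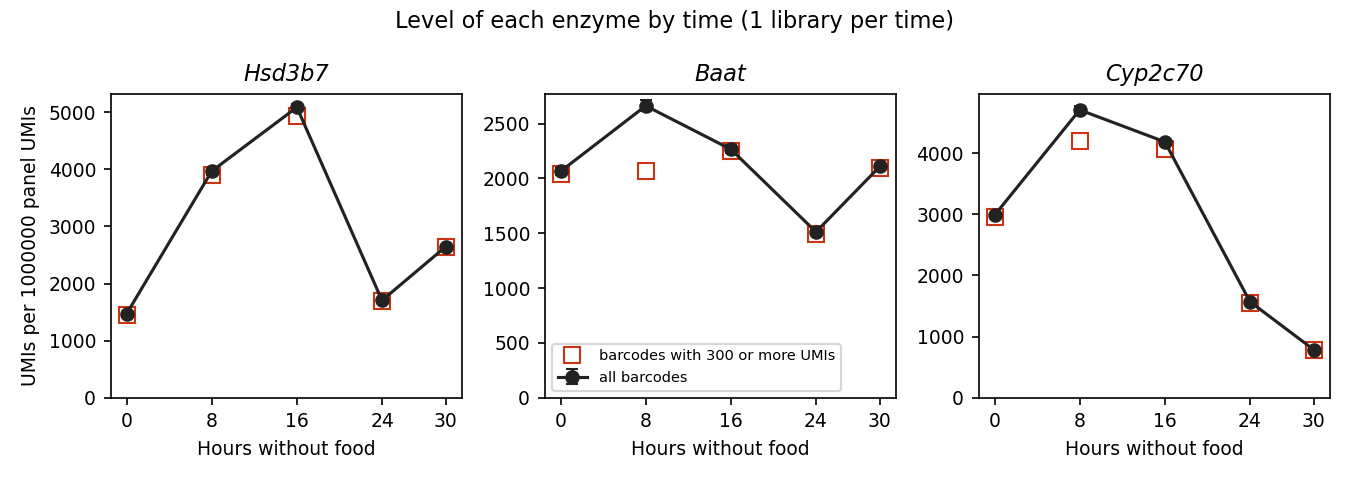
Level of Hsd3b7, Baat and Cyp2c70 (UMIs per 1000000 panel UMIs, linear axis from 0) against hours without food. Filled circles are all barcodes of the single library of each time with 95% Poisson intervals (mostly smaller than the symbol), and open squares are barcodes with 300 or more UMIs. Hsd3b7 peaks at 5084 after 16 h, Cyp2c70 ends at 786 after 30 h, and the square of Baat after 8 h (2071) lies well below its circle (2662). Counted per barcode instead, all 3 genes after 8 h lie below 0 h.

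The plot of levels by hours without food shows the separate courses and the 1 value, Baat after 8 h, that the shallow barcodes moved most. Differences of such sizes were common in the panel. At 8 h, 1 of the 3 genes (Hsd3b7, higher) differed from 0 h by over 2-fold, where 30.4% of 56 panel genes with at least 100 UMIs did. With 300 or more UMIs it was again Hsd3b7 alone, and 14 of 55 panel genes. At 16 h it was again Hsd3b7 alone, against 39.3% of the panel. At 24 h it was none of the 3, against 32.1%. At 30 h it was Cyp2c70 alone, lower, against 42.9%. Past 1.5-fold were Hsd3b7 and Cyp2c70 after 8 h (50% of the panel), Hsd3b7 after 16 h (53.6%), Cyp2c70 after 24 h (50%), and Hsd3b7 and Cyp2c70 after 30 h (58.9%). The median log2 ratio of the 3 genes was 0.66 after 8 h, 0.49 after 16 h, -0.45 after 24 h and 0.031 after 30 h, and that of the 56 panel genes was 0.047, -0.15, -0.12 and -0.071.

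The clock-matched comparison of 24 h with 0 h gave log2 ratios of 0.21 for Hsd3b7, -0.45 for Baat and -0.93 for Cyp2c70. Hsd3b7, which had differed by 1.79 after 16 h, was thus back within 1.16-fold of the fed library at the same clock hour. Cyp2c70 was 1.90-fold lower there. All 4 ratios to 0 h share the fed library, so an error in that library would move them together.

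The ratio of 2 of these genes within a library does not depend on how libraries are scaled. For each Hsd3b7 UMI there were 2.03 Cyp2c70 UMIs at 0 h, 1.19 after 8 h, 0.823 after 16 h, 0.922 after 24 h and 0.297 after 30 h. Between 0 h and 30 h this ratio differed by -2.77 on the log2 scale (-2.82 to -2.73). Baat UMIs per Hsd3b7 UMI were 1.40, 0.671, 0.446, 0.887 and 0.797 in the same order of libraries. Baat UMIs per Cyp2c70 UMI were 0.692, 0.566, 0.542, 0.963 and 2.68. In barcodes with 300 or more UMIs the 3 ratios after 8 h were 1.08, 0.532 and 0.493. The conjugating enzyme thus gained on Cyp2c70 between 16 h and 30 h, while Hsd3b7 was ahead of its fed ratio to both in every fasted library. Capture differs between genes, so a ratio in 1 library says nothing of how many molecules each gene had.

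**Figure D2:**
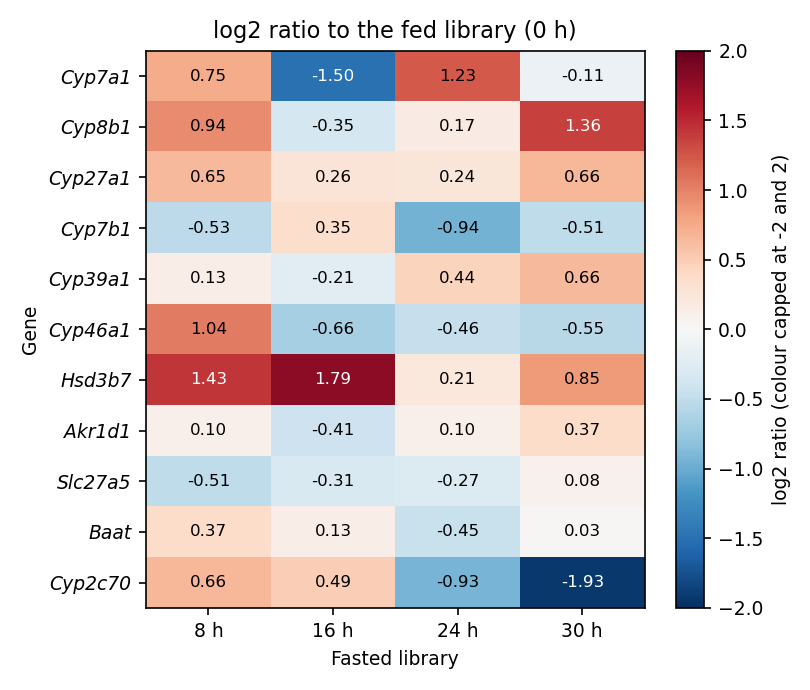
Log2 ratio of each fasted library (columns) to the fed library for the 11 panel genes of bile acid synthesis (rows), in UMIs per 1000000 panel UMIs, with 1 library per time. Red is higher and blue lower than 0 h, the colour ends at 2 and -2, and the number in each cell is the value. Hsd3b7 has the highest cell (1.79 after 16 h) and Cyp2c70 the lowest (-1.93 after 30 h). Counted per barcode, Hsd3b7 and Cyp2c70 after 8 h would be -0.25 and -1.02.

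The panel held 11 of 20 listed genes of bile acid synthesis. The map of their log2 ratios sets the 3 late enzymes beside the other 8. Of those 8, 1 was over 2-fold higher after 8 h (Cyp46a1, a sterol 24-hydroxylase, 1.04), 1 over 2-fold lower after 16 h (Cyp7a1, the rate-limiting enzyme of the classic route, -1.50), 1 higher after 24 h (Cyp7a1, 1.23) and 1 higher after 30 h (Cyp8b1, the 12α-hydroxylase of cholic acid, 1.36). Their median log2 ratio was 0.39, -0.33, 0.14 and 0.22. At 16 h, where Hsd3b7 was at 1.79, the 8 others lay between -1.50 and 0.35. At 30 h, where Cyp2c70 was at -1.93, they lay between -0.55 and 1.36. Akr1d1, the 5β-reductase that follows Hsd3b7, had log2 ratios of 0.10, -0.41, 0.10 and 0.37. Slc27a5, the bile acid-CoA ligase that precedes Baat, had -0.51, -0.31, -0.27 and 0.080, where Baat had 0.37, 0.13, -0.45 and 0.031.

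Of 20 listed genes of bile acid sensing and transport the panel held 4. Nr1h4, the bile acid receptor FXR, stayed within 1.11-fold of 0 h in all fasted libraries. Nr0b2, the repressor SHP that FXR induces, had log2 ratios to 0 h of 0.57, 1.20, 0.78 and 1.08. S1pr2, a receptor for conjugated bile acids, was higher after 8 h (0.39, 0.18 to 0.60) and lower after 30 h (-0.65, -0.85 to -0.46). After 16 h and 24 h its ratios were -0.03 and -0.09, with intervals that included 0. Fgf15, an intestinal hormone gene, had 0 UMIs. For Fgf15, 3 UMIs would correspond to 0.266 to 0.754 CPM in these libraries.

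The genes whose ratios to 0 h lay nearest to those of each enzyme were found among 51 other panel genes that had 100 or more UMIs in all 5 libraries. Nearness was the mean absolute difference of the log2 ratios over the 4 fasted libraries, all of which share the fed library. For Hsd3b7 they were Elovl5 (0.37), G6pc (0.45) and Nr0b2 (0.56), against a median of 1.18 over the 51. For Baat they were Ywhaz (0.14), Alb (0.24) and Nr1h4 (0.24), against a median of 0.73. For Cyp2c70 they were Cyp7b1 (0.69), S1pr2 (0.72) and Baat (0.77), against 1.18, so no panel gene followed Cyp2c70 as closely as Elovl5 followed Hsd3b7.

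Position in the lobule was then read from each barcode's own UMIs. Blood flows from the portal vein to the central vein, and Cyp2f2 marks periportal and Cyp2e1 pericentral hepatocytes. Barcodes were ranked within each library by the ratio of Cyp2e1 to Cyp2f2 UMIs (each plus 1) and cut into 10 equal bins, from bin 1 at the periportal end to bin 10 at the pericentral end. Both ranking genes were left out of the denominator. Markers that took no part in the ranking followed it. At 0 h, Glul, the glutamine synthetase of cells around the central vein, was at 1603 UMIs per 1000000 in bin 1 and 7831 in bin 10, and the periportal gene Hsd17b13 was at 4618 and 1736. Alb was lower towards the central end, with 72.7% of panel UMIs in bin 1 and 47.5% in bin 10 at 0 h, which raises the share of most other genes at the pericentral end. Each zone ratio, bins 9 and 10 together (the pericentral end) over bins 1 and 2 together (the periportal end), is therefore also given with Alb left out and against the median of the panel. Barcodes with no UMI of either ranking gene could not be ranked and were left out of the bins (1, 93 and 4 at 0, 8 and 16 h). A rank is relative to its own library and is not a measured distance.

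Hsd3b7 varied little from bin 1 to bin 6 at 0, 16 and 30 h and climbed towards the central end. At 0 h its level was 1095 in bin 1, 1213 in bin 7, 1512 in bin 8, 2665 in bin 9 and 5802 in bin 10. At 16 h it was 3392 in bin 1, 4335 in bin 7 and 16481 in bin 10. The highest bin was bin 10 in all 5 libraries, at 3.04-fold (8 h) to 5.78-fold (0 h) the lowest bin. Its log2 zone ratio was 2.01 at 0 h (1.93 to 2.09), 1.38 after 8 h (1.31 to 1.44), 2.09 after 16 h (2.04 to 2.14), 2.20 after 24 h (2.14 to 2.27) and 1.93 after 30 h (1.88 to 1.98). With Alb left out these were 1.29, 0.59, 1.18, 1.32 and 1.18. Hsd3b7 exceeded the median of the panel by 0.64 after 8 h and by 1.06 to 1.26 in the other libraries, a distance on which the choice of denominator has no bearing. When shallower barcodes were dropped (300 or more UMIs kept), the 8 h library was again the lowest, at 1.52 against 1.89 to 2.22.

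Cyp2c70 was also higher towards the central end, by less. At 0 h it was 2429 in bin 1, 2739 in bin 7 and 7491 in bin 10, and after 30 h it was 579, 933 and 1441. The log2 zone ratio was 1.36 at 0 h (1.30 to 1.42), 1.27 after 8 h (1.21 to 1.33), 1.57 after 16 h (1.52 to 1.63), 1.25 after 24 h (1.18 to 1.33) and 1.24 after 30 h (1.14 to 1.34). With Alb left out it was 0.65, 0.48, 0.66, 0.37 and 0.49, and it exceeded the median of the panel by 0.30 (24 h) to 0.61 (0 h). In each library Cyp2c70 was less pericentral than Hsd3b7, with a difference of zone ratios of -0.65 at 0 h (-0.74 to -0.55), -0.11 after 8 h (-0.19 to -0.022, or -0.21 with 300 or more UMIs), -0.52 after 16 h, -0.95 after 24 h (-1.05 to -0.85) and -0.69 after 30 h.

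Baat had no zone direction that held under every denominator. Its log2 zone ratio was 0.75 at 0 h (0.68 to 0.82), 0.91 after 8 h, 1.10 after 16 h (1.03 to 1.18), 1.08 after 24 h (1.01 to 1.15) and 0.78 after 30 h (0.72 to 0.84). The median of the panel was 0.75, 0.74, 1.04, 0.96 and 0.79, so Baat differed from it by -0.011 to 0.18. With Alb left out the Baat ratio was 0.034, 0.13, 0.19, 0.19 and 0.027, and per barcode it was -0.22, -0.039, 0.17, 0.15 and -0.18. Baat was less pericentral than Hsd3b7 in each library, by -1.26 (0 h) to -0.46 (8 h, or -0.69 with 300 or more UMIs), and less so than Cyp2c70, by -0.61 (0 h) to -0.18 (24 h). At 8 h Baat was highest in the middle of the axis, at 4804 in bin 8 against 3179 in bin 10. Bins 5 to 8 of that library held barcodes with medians of 114.5 to 121 UMIs, against 366 in bin 10 and 611.5 in bin 1. With 300 or more UMIs this peak was absent, and Baat in successive pairs of bins ran from 1736 at the periportal end through 1877, 1904 and 2325 to 3086 at the pericentral end. With Alb also left out, the same pairs were at 8760, 9000, 8685, 7878 and 8430, without such a rise.

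**Figure D3:**
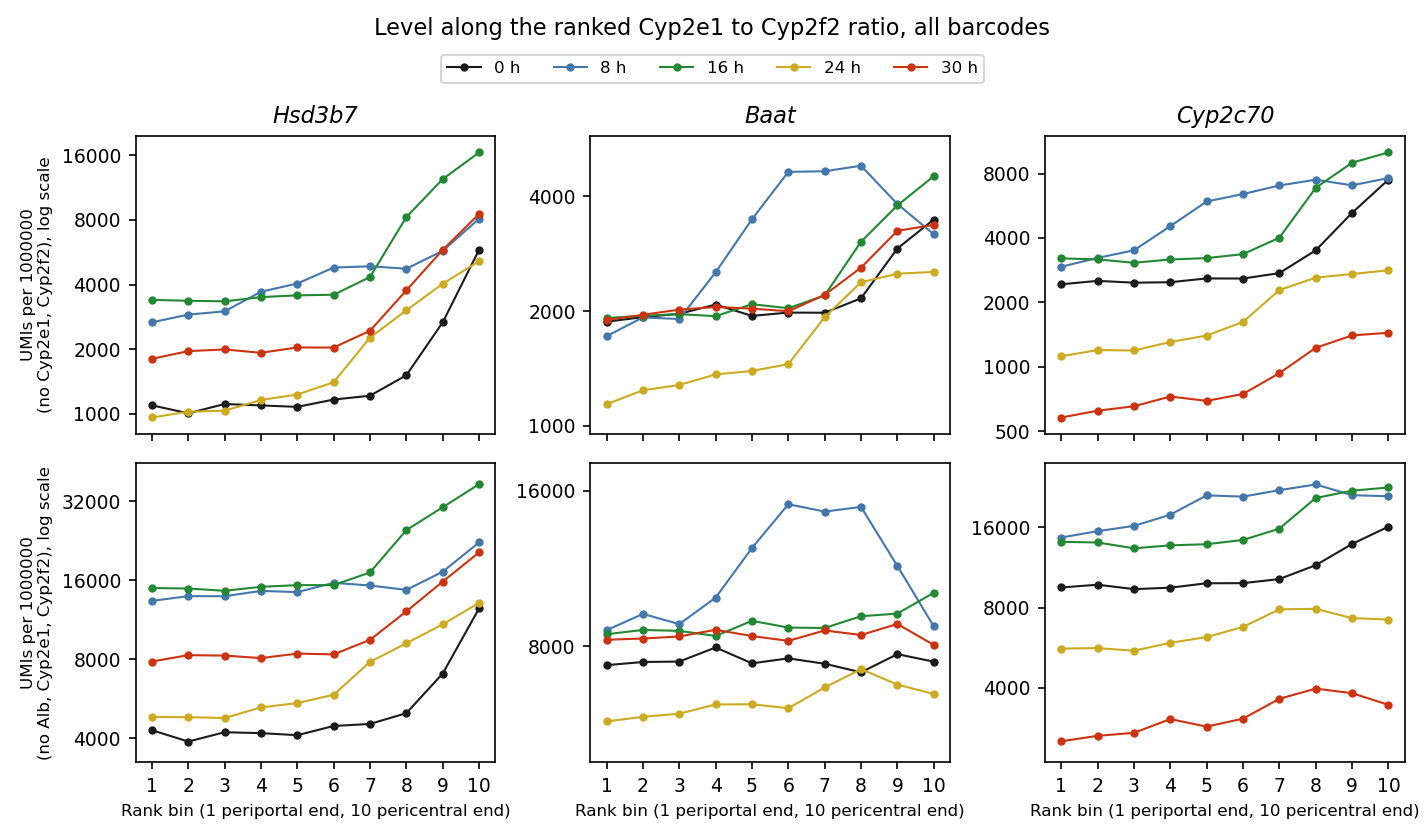
Levels of Hsd3b7, Baat and Cyp2c70 (UMIs per 1000000, log axis) in 10 bins of barcodes ranked by the Cyp2e1 to Cyp2f2 ratio, 1 line per library. The upper row leaves Cyp2e1 and Cyp2f2 out of the denominator, and the lower row Alb as well. Hsd3b7 climbs from bin 7 to bin 10 in both rows (1213 to 5802 at 0 h, upper row), with a dip at bin 8 in the 8 h library. Baat is flatter in the lower row than in the upper. In the 8 h library, whose bins 5 to 9 hold shallow barcodes, Baat keeps a peak in the middle of the axis in both rows.

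By the rule of over 1.5-fold at the pericentral end, all 3 genes counted as pericentral in each library, but so did 64% of panel genes at 0 h, 74% after 8 h, 71.4% after 16 h, 77.6% after 24 h and 66% after 30 h (49 or 50 genes each). With Alb left out the rule took 2 of the 3 genes at 0 h (Hsd3b7 and Cyp2c70), where it took 16% of the panel. It took Hsd3b7 alone after 8 h (16% of the panel), Hsd3b7 and Cyp2c70 after 16 h (18.4%), and Hsd3b7 alone after 24 h (18.4%) and 30 h (20%). In the plot of zone ratios by denominator, the order of the 3 genes is the same at each time. A change of denominator shifts all genes of a library equally, so it could not alter that order.

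**Figure D4:**
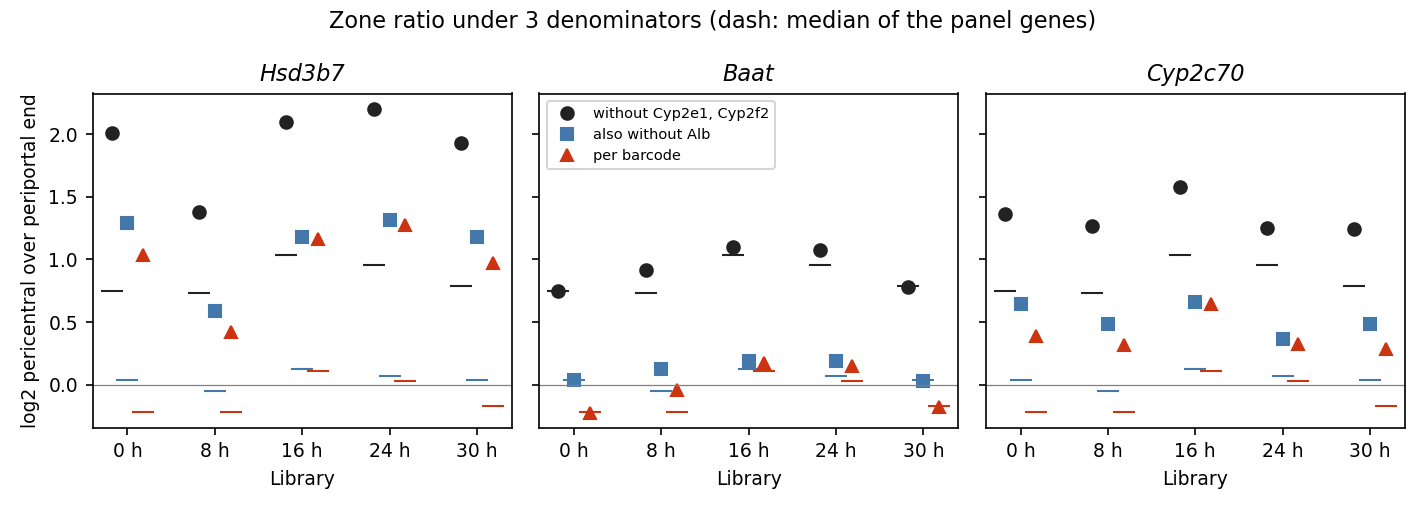
Log2 ratio of the pericentral over the periportal end in each library for Hsd3b7, Baat and Cyp2c70, with 3 denominators (circles, panel UMIs without Cyp2e1 and Cyp2f2; squares, also without Alb; triangles, per barcode). Short dashes of the same colour are the medians of 49 or 50 panel genes, and counting intervals are left out. Hsd3b7 and Cyp2c70 lie above 0 and above the dash throughout, whereas Baat lies near the dash and below 0 per barcode at 0, 8 and 30 h. The distance of a gene to its dash is by construction the same under the 3 denominators.

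Along the axis, the panel genes most like Hsd3b7 were Cyp27a1 (0.070), Cyp7b1 (0.13) and Cyp8b1 (0.17), all hydroxylases of bile acid synthesis. The measure was the mean absolute difference of log2 profiles, each centred within its library, over 50 points, and its median over 49 genes was 0.37. Points of 1 library share its ranking and its depth. Baat was nearest to Nr1h4 (0.087), Dgat2 (0.088) and Actb (0.088), with a median of 0.20. Among the nearest to Cyp2c70 were Igfbp2 (0.11) and Nr1h3 (0.14), with a median of 0.24. Of the chain's other enzymes, Cyp27a1 had log2 zone ratios without Alb of 0.70 to 1.28. Akr1d1 had -0.078 to 0.13 and Slc27a5 had -0.12 to 0.020. At 0 h the same ratio was 4.16 for Cyp7a1, above the 1.29 of Hsd3b7, and 0.56 for Cyp7b1 and 0.13 for Cyp8b1.

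The changes over time were then read along the ranking. Each of the 5 pairs of neighbouring bins of a fasted library was set against the same pair at 0 h. A rank is relative to its own library, so the same pair need not be the same zone. Cyp2c70 after 30 h was lower in all 5 pairs, with log2 ratios from periportal to pericentral of -2.04, -1.85, -1.85, -1.53 and -2.16. Hsd3b7 after 16 h was higher in all 5, at 1.68, 1.63, 1.67, 2.16 and 1.77, and after 30 h in all 5, at 0.84, 0.83, 0.86, 1.17 and 0.77. At 24 h Hsd3b7 was near 0 h in the pairs nearest the portal end, bins 1 to 4 (-0.081 and -0.0087), and highest in bins 7 and 8 (0.96, 0.88 to 1.04). With Alb left out, however, Hsd3b7 was higher at 24 h than at 0 h in each of bins 1 to 4. Its level was then 4819 against 4290 in bin 1 and 5240 against 4182 in bin 4. Its nearness to 0 h at the portal end thus depended on the denominator. Baat after 24 h was lower in the 3 pairs nearest the portal end (-0.67, -0.61 and -0.47) and at the pericentral end (-0.34), and in bins 7 and 8 its interval included 0 (0.051, -0.026 to 0.13). With Alb left out, Baat in bin 7 was at 6653 after 24 h against 7396 at 0 h. In bin 8 it was at 7219 against 7118. After 24 h and 30 h, bins 7 and 8 had the highest ratio of the 5 pairs for each of the 3 genes. The ranking genes themselves also differed between libraries. After 8, 16, 24 and 30 h, Cyp2e1 had log2 ratios to 0 h of 0.99, 0.88, 1.45 and 1.58. Those of Cyp2f2 were -0.48, -0.27, -0.89 and -0.24. In bin 8 the level of Cyp2e1 was 7883 at 0 h, 68413 after 24 h and 56519 after 30 h. Whether a shift of zones between libraries had a part in the high ratios of bins 7 and 8 was not tested.

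At 8 h Hsd3b7 was higher in each pair of bins, but least at the pericentral end, with a log2 ratio of 0.77 (0.71 to 0.83) there and 1.40 (1.32 to 1.48) at the periportal end. The difference of -0.63 (-0.73 to -0.53) became -0.36 in barcodes with 300 or more UMIs and -0.71 with Alb left out. For Baat the change was the more positive one at the pericentral end after 16 h, by 0.35 (0.25 to 0.46), and after 24 h, by 0.33 (0.23 to 0.43), or by 0.16 each time with Alb left out. For Cyp2c70 the differences between the ends ran from -0.12 after 30 h to 0.21 after 16 h, and with Alb left out from -0.28 after 24 h to 0.015 after 16 h.

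Shares of barcodes with a UMI were compared after each barcode had been thinned at random to 200 panel UMIs, which left out 52, 5807, 522, 4 and 26 barcodes at 0, 8, 16, 24 and 30 h. Median depths before thinning were 1037.5, 485, 676, 1203 and 1150 UMIs. An Hsd3b7 UMI was then found in 26.7% of barcodes at 0 h (25.7% to 27.8%), 52.1% after 8 h, 58.3% after 16 h, 29.7% after 24 h and 40.6% after 30 h. Unthinned, the Hsd3b7 shares were 68.9%, 57.2%, 87.7%, 75.7% and 86.1%, which follow depth as well. Cyp2c70 was found in 43.6%, 54.6%, 54.5%, 28.7% and 15.98% of thinned barcodes, against 87.9%, 66.3%, 85.8%, 77.8% and 52.4% unthinned. Baat was found in 33.97%, 32.5%, 36.1%, 26.4% and 34.2%, against 79.9%, 52.0%, 69.9%, 75.3% and 83.7% unthinned. The thinned shares thus followed the order of the CPM values except for Baat after 8 h, for which no order is read.

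At the 2 ends of the axis, thinned shares of Hsd3b7 after 16 h were 46.4% (periportal, 44.1% to 48.8%) and 88.9% (pericentral, 87.3% to 90.3%). For Cyp2c70 after 30 h they were 11.4% and 20.6%. Barcodes with at least 3 UMIs of the genes of other liver cells would lack all 3 enzymes only if free of hepatocyte RNA. In each library, however, 100% of barcodes had an Alb UMI. At 200 or more UMIs only 25, 5, 1, 14 and 15 barcodes had at least 3 such other-cell UMIs. Their median depths were 277, 234, 863, 288 and 914, and at 0 h 52.0% (31.3% to 72.2%) of them had an Hsd3b7 UMI. That share is not below the share of all barcodes, so none of these shares is read as a share of expressing cells. After thinning, 29.5% of barcodes at 0 h had no UMI of the 3 genes and 5.46% had all 3, and after 16 h these were 15.5% and 15.1%. The variance of the thinned Hsd3b7 count was 1.36 times its mean at 0 h and 1.76 times after 16 h. For Baat it was 1.11 times at both, and the median over panel genes was 1.18 and 1.14. Such a ratio can rise with the mean count, which for Hsd3b7 was 0.357 at 0 h and 1.14 after 16 h. No difference in spread between cells is therefore read from these values.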

How the data were processed

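Single hepatocytes from mouse liver were profiled with a targeted 3′ single-cell assay, 1 library for each of 5 times. The deposited file holds raw UMI counts for 64 genes in 47473 barcodes, which the authors made with Cell Ranger 6.0.1 on mm10, per the submitters' processing notes. The library of each barcode came from a second table. Annotation and cell calling are not given in the sources used here.

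UMIs were summed per library, or per bin of ranked barcodes, and divided by panel UMIs (CPM). Capture and 3′ counting differ between genes, so levels were compared only within a gene. Intervals at 95% were exact Poisson for levels, conditional binomial for log2 ratios, Clopper-Pearson for shares, and normal for differences of log2 ratios. With 1 library per time there was no test. A gene counted as past a fold with at least 100 UMIs over both sides. Ties in the ranking were ordered at random (seed 1). No doublet caller was run, and an alternative left out the deepest 5% of barcodes.

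The genes named were the 3 enzymes, the panel genes of 2 bile acid lists, Cyp2e1, Cyp2f2, Glul and Alb, and the 3 genes most like each enzyme, 1 of which is not reported here. Hsd17b13 and the 6 genes of other liver cells served as level checks. The members and lists were chosen with earlier results of these data known, and the motifs after the promoters had been seen. Gene positions came from GENCODE M21 on GRCm38, where 64 of 64 identifiers had equal names. Tested on simulated data, 20 of 20 genes changed 4-fold among 51 were recovered at each of the 4 fasted times, with 0 unchanged genes past 2-fold. The simulated counts held Poisson counting error only, so this check says nothing of differences between animals or libraries. Python 3.11.15, numpy 2.4.6, scipy 1.17.1 and pandas 2.3.3 were used.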

Additional observations from a re-analysis of the deposited data

Results flagged for a closer look

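For each of the 3 genes, some changes against 0 h differed between the 2 ends of the Cyp2e1 to Cyp2f2 axis. These differences had counting intervals clear of 0. How many other panel genes showed such differences was not counted, so their presence is not read as a trait of the 3 genes. Those of Hsd3b7 and Cyp2c70 had different signs in different fasted libraries and are given here, while the 3 of Baat were all positive (0.17, 0.35 and 0.33 after 8, 16 and 24 h). Each compares single libraries, so the difference was not tested between animals. Hsd3b7 had a pericentral minus periportal log2 change of -0.63 after 8 h (-0.73 to -0.53) and 0.20 after 24 h (0.092 to 0.30). With Alb left out these were -0.71 and 0.022. Cyp2c70 had -0.093 after 8 h (-0.17 to -0.011), 0.21 after 16 h (0.13 to 0.29), -0.11 after 24 h (-0.20 to -0.016) and -0.12 after 30 h (-0.23 to -0.0090). In barcodes with 300 or more UMIs the Cyp2c70 value after 8 h was 0.026, and with Alb left out those after 16 h and 24 h were 0.015 and -0.28. Barcode depth was lowest in the 8 h library, and clock hour differed from 0 h after 8, 16 and 30 h but not after 24 h. Their part was not tested.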

How the results depend on the processing

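Per barcode, Hsd3b7 at 8 h was -0.25, 2 of the 3 genes and 42 panel genes (17 in CPM) passed 2-fold at 8 h, and Baat had zone ratios of -0.22 (0 h), -0.039 (8 h) and -0.18 (30 h). With 300 or more UMIs and no Alb, chosen after seeing the data, the Baat zone ratios were -0.039 (0 h), -0.055 (8 h) and -0.0083 (30 h). The number of the 3 genes past 1.5-fold at the pericentral end, 3 in each library, was 1 at 8, 24 and 30 h without Alb, and also with 300 or more UMIs and no Alb. Per barcode it was 1 at 0, 24 and 30 h and 0 at 8 h. Ranked by Cyp2f2 share alone, the zone ratios at 0 h were 1.17 (Hsd3b7), 0.65 (Cyp2c70) and 0.090 (Baat), and 11 of 51 panel genes were pericentral against 32 of 50. Of 96 alternative values of ratios to 0 h, 54 stayed within the counting interval and 5 changed sign, all per barcode. Of 165 zone ratios, 47 stayed and 6 changed sign, and of 36 differences between the ends, 25 stayed and 4 changed sign. The 45 shares all moved with the thinning depth. No paired analysis was possible because each time point has 1 library.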
